A study of Homo sapiens with 8 samples.

Results

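The genes described here are 10 developmental regulators of RNA and chromatin, LIN28A, LIN28B, IGF2BP1, IGF2BP2, IGF2BP3, HMGA1, HMGA2, TRIM71, DICER1 and AGO2, out of 52719 genes summed from the deposited table. They were taken by symbol, and the level of each is the sum of TPM (a length-corrected share of a library's transcripts, on a scale common to all libraries) over all transcripts matched to it. The cells were SH-SY5Y, a human neuroblastoma line, and stranded mRNA libraries of them were sequenced. In 4 libraries, replicates 21 to 24, the cells had been given 1 µM 9-cis retinoic acid, a ligand of retinoic acid and retinoid X receptors, over 7 days, and they are called differentiated. In the other 4 libraries, replicates 17 to 20, the cells were undifferentiated, with no dose or day in the labels, so time in culture and treatment cannot be told apart. Both groups shared the culture medium, DMEM/F12 plus foetal calf serum. Lane 7 held undifferentiated replicates 17 and 18, and lane 8 held the remaining 6 libraries. The labels name no separate cultures, so the spread behind each p-value may be technical only.

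LIN28A and LIN28B are RNA-binding proteins of early embryonic and fetal cells that bind precursors of the let-7 microRNAs and block their maturation. Mature let-7 in turn represses LIN28, the IGF2BP, HMGA and TRIM71 messages through matching sites in their 3′ UTRs, so the genes form a loop that switches as cells mature. DICER1 cuts precursor microRNAs to their mature length, and AGO2 holds the mature strand and can slice its targets. In neuroblastoma LIN28B is known as an oncogene that keeps MYCN high.

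The microRNA at the centre of this loop was not measured in these mRNA libraries. Its sequence gives the letters to search for in the genes. All 9 mature let-7 family names in the RefSeq table (GRCh38.p14), from 12 loci, carry the same seed, bases 2 to 8, shown in capitals for 3 of them that differ outside it.
let-7a-5p: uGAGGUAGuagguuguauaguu
let-7i-5p: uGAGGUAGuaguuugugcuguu
miR-98-5p: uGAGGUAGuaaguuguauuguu
The reverse complement of that seed, CTACCTC, was searched on the transcript strand in the longest annotated 3′ UTR of each gene in GENCODE 29 (GRCh38). It was present in 11.2% of 18995 protein-coding genes and 3 or more times in 0.205%. LIN28B held 4 matches in 4549 bases, TRIM71 held 6 in 6015 bases and IGF2BP1 held 4 in 6206 bases. AGO2 held 2, and LIN28A, IGF2BP2, IGF2BP3 and HMGA1 held 1 each. DICER1 held none, and HMGA2 held none in its longest 3′ UTR but 4 in that of transcript HMGA2-204. The matches of LIN28B and of 2 other genes with high levels are given with the 14 bases before each match and the base after it, the match in capitals.
LIN28B, chr6:105078813-105078834, plus strand: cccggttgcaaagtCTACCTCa
LIN28B, chr6:105081240-105081261, plus strand: actgatgatagtaaCTACCTCt
LIN28B, chr6:105081422-105081443, plus strand: tttacagcaaaaggCTACCTCa
LIN28B, chr6:105082861-105082882, plus strand: aatgatggtgttgaCTACCTCt
IGF2BP3, chr7:23311795-23311816, minus strand: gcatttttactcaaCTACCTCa
HMGA1, chr6:34245830-34245851, plus strand: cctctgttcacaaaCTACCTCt
The IGF2BP3 match is from transcript IGF2BP3-202, annotated for nonsense-mediated decay, with a mean of 0.017 TPM over all libraries. Most IGF2BP3 TPM lay on IGF2BP3-201, at a mean of 68.7 TPM. The counts above do not say whether the 3′ UTR of IGF2BP3-201 holds the same match. A match is a run of letters and was not shown to be a working site in these cells.

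Mean levels of the 10 genes in differentiated cells ranged from 0.104 TPM for LIN28A to 93.6 TPM for HMGA1. In undifferentiated cells HMGA1 stood highest at 106 ± 4.80 TPM, above IGF2BP3 at 94.1 ± 5.50 TPM with no overlap between the libraries (SD, n = 4). In differentiated cells this order was not resolved, with overlapping libraries, HMGA1 at 93.6 ± 13.1 TPM and IGF2BP3 at 82.4 ± 11.8 TPM (SD, n = 4). DICER1 followed at 26.5 ± 6.43 TPM in differentiated and 27.8 ± 2.43 TPM in undifferentiated cells. AGO2 and LIN28B came next, and their ranges overlapped within each group. The remaining 5 genes, LIN28A, IGF2BP1, IGF2BP2, HMGA2 and TRIM71, had means under 1 TPM. Depth is unknown for TPM, so values under 1 TPM carry an error that cannot be stated. A level here is a share of RNA in bulk cells, so fewer cells that express a gene and less RNA per cell cannot be told apart.

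**Figure D1:**
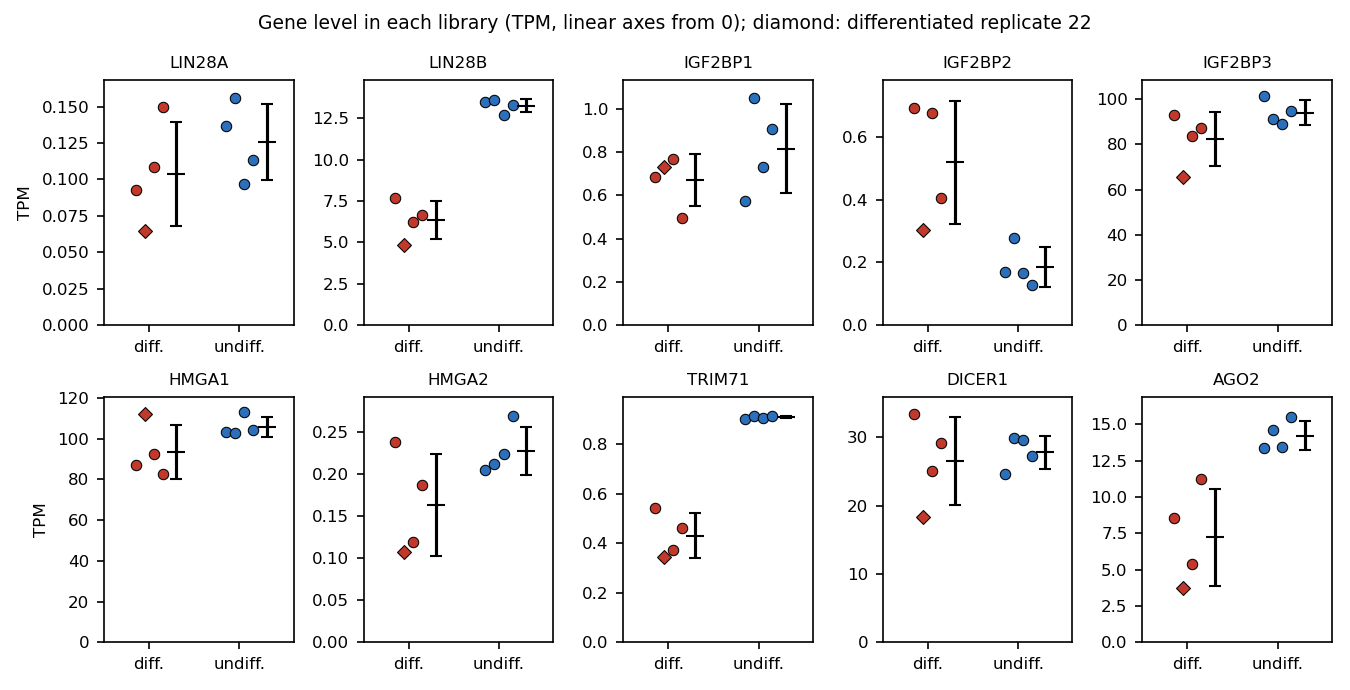
Level of each of the 10 genes in TPM on linear axes from 0, with differentiated libraries in red on the left and undifferentiated libraries in blue on the right; bars give the mean and SD of n = 4 libraries and the diamond is differentiated replicate 22. The groups are separate for LIN28B, IGF2BP2, TRIM71 and AGO2 and overlap for the other 6 genes.

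The comparison asks how these regulators change on differentiation by retinoic acid. LIN28B and AGO2 fell, with ratios of means of 0.480 and 0.509 (differentiated over undifferentiated, n = 4 each). TRIM71 fell by a like ratio at a low level, and IGF2BP2 rose but stayed under 1 TPM. HMGA1, IGF2BP3 and DICER1, with higher levels than the other members, did not pass the test. With limma on log2(TPM+1) and Benjamini-Hochberg adjustment over the 17077 genes whose mean reached 1 TPM, 2 of the 5 tested members were called lower and 0 higher at an adjusted p under 0.05. Over all tested genes 17.4% were called lower and 33.9% higher, 51.3% in all. All 5 tested members had negative log2 fold changes, with a median of -0.20 against 0.10 over all tested genes. Of all 10 genes, 9 had a lower mean in differentiated cells. Among these 9, the groups overlapped for LIN28A, IGF2BP1, IGF2BP3, HMGA1, HMGA2 and DICER1. The groups did not overlap for 2 of the 5 tested members, where 49.6% of tested genes had groups that did not overlap.

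LIN28B, the paralog with nearly all LIN28 TPM in these cells, fell in differentiated cells. It had 7.66, 4.87, 6.25 and 6.67 TPM in differentiated replicates 21 to 24, against 13.5, 13.6, 12.7 and 13.3 TPM in undifferentiated replicates 17 to 20. The groups did not overlap, and the lowest undifferentiated library was well above the highest differentiated one. The log2 fold change was -0.97 ± 0.11 SE (limma, adjusted p = 0.000154), or -1.06 relative to the median of all genes. Every one of 18 alternative settings kept the call, with log2 fold changes between -1.18 and -0.86. All of its TPM lay on a single transcript of 5505 bases, LIN28B-201 (chromosome 6, 104936616 to 105083332, plus strand, GRCh38). LIN28A had 0.104 ± 0.0355 TPM in differentiated and 0.125 ± 0.0260 TPM in undifferentiated cells (SD, n = 4), with overlapping groups (two-sided exact permutation test, p = 0.371). LIN28B thus made up 98.4% ± 0.451 of LIN28 TPM in differentiated cells and 99.1% ± 0.168 in undifferentiated cells (SD, n = 4).

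TRIM71, a ubiquitin ligase and RNA-binding protein of stem cells that is a classical let-7 target, was low in both groups and fell. It had 0.545, 0.345, 0.372 and 0.464 TPM in differentiated replicates 21 to 24, against 0.903, 0.913, 0.908 and 0.913 TPM in undifferentiated replicates 17 to 20. The undifferentiated libraries were nearly level, and each was above every differentiated one. The ratio of means was 0.474, and the two-sided exact permutation test gave p = 0.0286, the smallest that 4 against 4 libraries allow. This exact test was made for the 5 genes under 1 TPM and is not adjusted. Among all 8348 genes with a mean of 0.1 to 1 TPM, the groups did not overlap for 18%. When the fit included every gene above 0, TRIM71 was called lower with a log2 fold change of -0.42 ± 0.07 SE (limma, adjusted p = 0.00210).

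**Figure D2:**
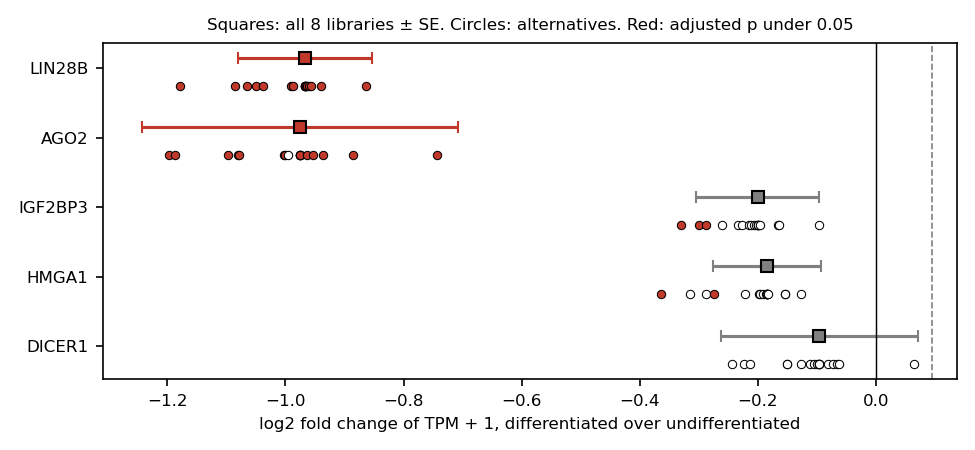
Log2 fold change of TPM + 1, differentiated over undifferentiated, for the 5 tested genes. Squares are the fit with all 8 libraries with its SE, circles are the 18 alternative settings, red marks an adjusted p under 0.05, and the dashed line is the median of all tested genes at 0.10; LIN28B is red in every setting and DICER1 in none.

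AGO2, the Argonaute protein with slicing activity, fell in differentiated cells, with a wide spread between their libraries. It had 8.56, 3.76, 5.40 and 11.2 TPM in differentiated replicates 21 to 24, against 13.4, 14.6, 13.4 and 15.5 TPM in undifferentiated replicates 17 to 20. Replicate 22 was lowest and replicate 24 highest among the differentiated libraries, and neither reached the undifferentiated range. The log2 fold change was -0.98 ± 0.27 SE (limma, adjusted p = 0.0155). Within lane 8, with 2 undifferentiated libraries, it was -0.996 and did not pass (limma, adjusted p = 0.0930, against 0.00202 to 0.0930 over the alternatives). Most of its TPM lay on the 14581-base transcript AGO2-201, which had 4.54 ± 2.21 TPM in differentiated and 9.12 ± 0.60 TPM in undifferentiated cells (SD, n = 4), with a log2 fold change of -0.97 (limma over all transcripts, adjusted p = 0.0348). AGO2-201 is the longest of the leading transcripts among the 10 genes.

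The other Argonaute genes, which also load microRNAs, were not called lower. AGO1 averaged 11.4 ± 3.001 TPM in differentiated and 13.2 ± 0.524 TPM in undifferentiated cells, and AGO3 10.6 ± 2.70 and 11.5 ± 0.659 TPM in the same order, neither called (SD, n = 4). AGO1 was called lower in 3 of 18 alternatives and AGO3 in 1. AGO4 rose, with 23.2 ± 5.67 TPM in differentiated and 14.7 ± 2.25 TPM in undifferentiated cells (SD, n = 4; log2 fold change 0.60 ± 0.19 SE; limma, adjusted p = 0.0301). Its groups overlapped at replicate 22, and it was called in 11 of 18 alternatives. AGO2 made up 13.2, 11.2, 10.6 and 18.6% of Argonaute TPM in differentiated replicates 21 to 24, against 24.4, 27.7, 26.5 and 27.4% in undifferentiated replicates 17 to 20. This share does not depend on how libraries are scaled, and its groups did not overlap. The two-sided exact permutation test gave p = 0.0286, the smallest the design allows, and 0.0571 after adjustment over the 6 paralog shares compared.

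**Figure D3:**
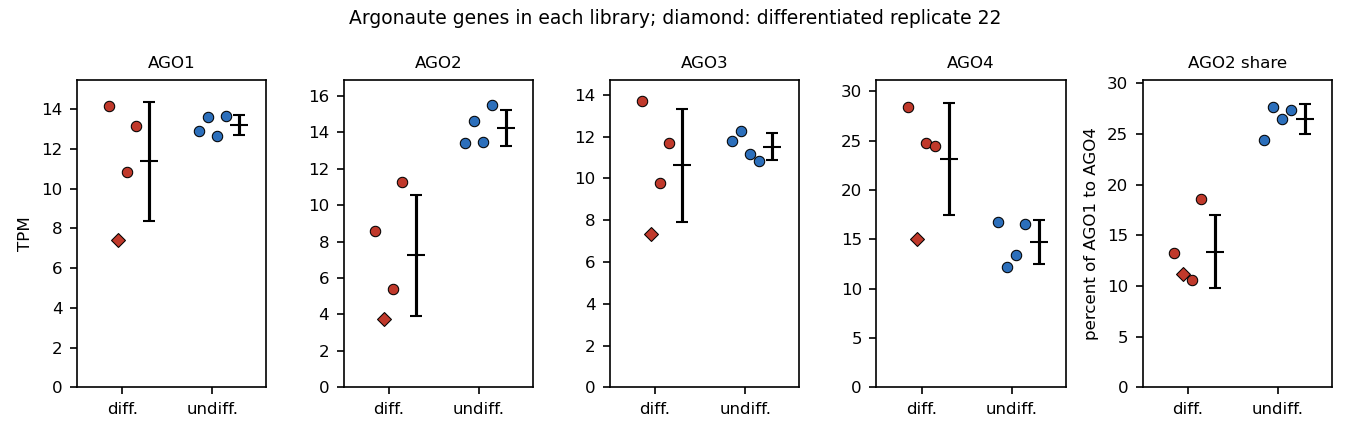
Levels of AGO1, AGO2, AGO3 and AGO4 in TPM and, at the right, AGO2 as a percentage of their sum, with differentiated libraries in red on the left, undifferentiated libraries in blue on the right, and mean ± SD of n = 4. AGO2 averaged 13.4% of the sum in differentiated and 26.5% in undifferentiated cells.

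DICER1, the enzyme that makes mature microRNAs, showed no call in any of 19 fits. It had 33.4, 18.3, 25.1 and 29.2 TPM in differentiated replicates 21 to 24, against 24.6, 29.9, 29.6 and 27.2 TPM in undifferentiated replicates 17 to 20. The differentiated libraries lay on both sides of the undifferentiated range. The log2 fold change was -0.10 ± 0.17 SE (limma, adjusted p = 0.670), and without replicate 22 it was 0.06. The leading transcript DICER1-202, of 10220 bases, had 13.7 ± 1.10 TPM in differentiated and 14.8 ± 2.52 TPM in undifferentiated cells (SD, n = 4), and its spread between differentiated libraries was smaller than that of the gene sum.

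Transcript length bears on the long messages among these genes. Differentiated replicate 22 held less of long transcripts than the other libraries. Its median deviation from the mean of 8 libraries on the log2(TPM+1) scale was 0.12 for the 2936 tested genes whose leading transcript is 1 to 2 kb long and -0.36 for the 327 with one over 10 kb. In differentiated replicate 21 the same medians were 0.11 and 0.24, and in undifferentiated replicates they lay between -0.10 and 0.07. Among 144 tested genes with a leading transcript from 20% shorter to 25% longer than AGO2-201, the median log2 fold change was -0.06 and 19.4% were called lower. For 2051 genes of lengths like that of LIN28B-201 the values were 0.06 and 21.2%. Without replicate 22 the log2 fold change was -0.74 for AGO2 and -0.86 for LIN28B, both still called. A length correction, chosen after seeing the data, removed each library's median deviation in 20 bins of transcript length. With it the log2 fold change was -0.95 for AGO2 (limma, adjusted p = 0.00222) and -1.04 for LIN28B. It also removes the median shift between the groups in each bin, so it does not act on length alone.

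**Figure D4:**
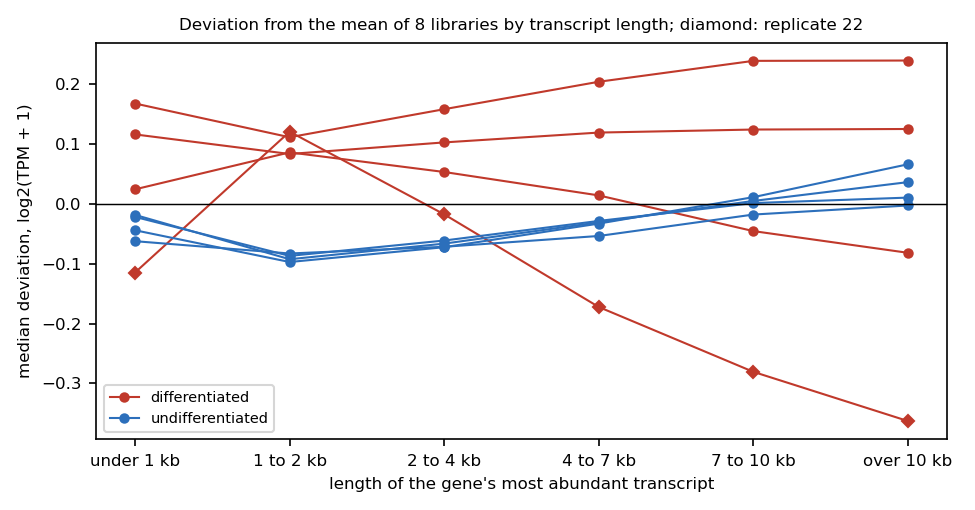
Median deviation of tested genes from their mean over the 8 libraries, on the log2(TPM+1) scale, by length of the leading transcript; each line is a library, differentiated in red and undifferentiated in blue, and diamonds mark replicate 22. Replicate 22 falls to -0.36 for transcripts over 10 kb, while the undifferentiated libraries stay between -0.10 and 0.07 in every class.

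The IGF2BP proteins bind messenger RNAs, many of them carrying m6A, and protect them from decay; they are expressed mainly in the fetus and again in tumours. IGF2BP3 carried 98.6% ± 0.292 of the family's TPM in differentiated and 98.9% ± 0.290 in undifferentiated cells (SD, n = 4). It had 92.9, 65.6, 83.6 and 87.4 TPM in differentiated replicates 21 to 24, against 102, 91.3, 88.9 and 94.7 TPM in undifferentiated replicates 17 to 20. Only replicate 21 reached the undifferentiated range, and replicate 22 was lowest. The log2 fold change of -0.20 ± 0.10 SE did not pass (limma, adjusted p = 0.145). Without replicate 22 it was -0.096 (limma, adjusted p = 0.186, against 0.00365 to 0.418 over the 18 alternatives). Relative to the median of all genes it was -0.30, and IGF2BP3 was called lower with median-of-ratios scaling (-0.33; limma, adjusted p = 0.00365), quantile normalization (-0.30; limma, adjusted p = 0.0165) and the length correction (-0.29; limma, adjusted p = 0.00421). The first 2 of these shifted the all-gene median to -0.02 and -0.07 on the log2 scale. The length correction also recentred each library, within every length bin. Under it the 10976 tested genes without a let-7 match had a median log2 fold change of -0.0015, against 0.12 in the main fit.

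IGF2BP2, the paralog also found in adult tissues, was the only one of the 10 genes with a higher mean in differentiated cells. It had 0.693, 0.302, 0.674 and 0.404 TPM in differentiated replicates 21 to 24, against 0.169, 0.276, 0.167 and 0.127 TPM in undifferentiated replicates 17 to 20. The groups did not overlap, though replicate 22 lay close to undifferentiated replicate 18. The two-sided exact permutation test gave p = 0.0286, unadjusted, and the fit with every gene above 0 called it higher with a log2 fold change of 0.35 ± 0.10 SE (limma, adjusted p = 0.0276). Its leading transcript IGF2BP2-202 had 0.203 ± 0.141 TPM in differentiated and 0.145 ± 0.0306 TPM in undifferentiated cells (SD, n = 4), with overlapping groups. Of its short noncoding transcripts, one was listed at 0.505 TPM in differentiated replicate 21 and another at 0.460 TPM in differentiated replicate 23, each at 0 in the other libraries. Over coding transcripts alone the difference of means was 0.105 TPM, against 0.333 TPM over all transcripts.
IGF2BP1 had 0.670 ± 0.121 TPM in differentiated and 0.816 ± 0.207 TPM in undifferentiated cells (SD, n = 4), with overlapping groups (two-sided exact permutation test, p = 0.286). Nearly all of that lay on a 768-base transcript without a coding sequence, IGF2BP1-206. The coding transcript IGF2BP1-201 had a mean of 0.0231 TPM in differentiated and 0.0663 TPM in undifferentiated cells. Its groups did not overlap, at 0 to 0.0357 TPM and 0.0394 to 0.0898 TPM in the same order, levels whose error cannot be stated. The family's coding message was thus almost entirely IGF2BP3.

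HMGA1 and HMGA2 are small chromatin proteins that bind AT-rich DNA through AT-hooks and are abundant in embryonic and tumour cells. HMGA1 had 87.1, 112, 92.5 and 82.5 TPM in differentiated replicates 21 to 24, against 103, 103, 113 and 104 TPM in undifferentiated replicates 17 to 20. Among the differentiated libraries, 3 lay below the undifferentiated range and replicate 22 lay inside it. The log2 fold change was -0.18 ± 0.09 SE and did not pass (limma, adjusted p = 0.131). Without replicate 22 it was -0.27 and called (limma, adjusted p = 0.00287), and with the length correction it was -0.36 and called (limma, adjusted p = 0.0107), against 0.00287 to 0.285 over the 18 alternatives. Replicate 22, which decided that call, was also the library low in long transcripts. The length correction also removes the median shift of genes of like length, so its -0.36 does not show a part of length. For tested genes with a leading transcript of 1 to 2 kb that median was 0.18. The part of length in the call was not tested. HMGA1 has processed pseudogenes, and reads shared with them make its level uncertain.

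HMGA1 is spliced into a longer and a shorter coding form, of 107 and 96 codons, which differ by the 33 bases shown here because they define the forms.
HMGA1, chr6:34240883-34240915, plus strand: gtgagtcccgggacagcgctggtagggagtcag
The shorter form, summed over 3 transcripts, took 40.4, 41.5, 42.5 and 43.3% of coding HMGA1 TPM in differentiated replicates 21 to 24, against 44.2, 43.4, 45.1 and 44.8% in undifferentiated replicates 17 to 20. The groups did not overlap but differed by only 2.5 percentage points, with means of 41.9% ± 1.24 and 44.4% ± 0.725 in the same order (SD, n = 4; two-sided exact permutation test, p = 0.0286, the smallest possible). This split was chosen after the transcripts were seen, and Salmon divides reads between such near-identical forms by estimate. The transcript HMGA1-202 of the shorter form fell, with 24.5 ± 3.90 TPM in differentiated and 34.5 ± 2.94 TPM in undifferentiated cells (SD, n = 4; log2 fold change -0.48; limma, adjusted p = 0.0146). HMGA1-203 and HMGA1-204, also of the shorter form, had higher means in differentiated cells and were not called. Their means were 10.2 and 4.50 TPM in differentiated cells, against 9.07 and 3.43 TPM in undifferentiated cells.
HMGA2, the other HMGA gene and a strong let-7 target in other cells, had 0.163 ± 0.0610 TPM in differentiated and 0.227 ± 0.0287 TPM in undifferentiated cells (SD, n = 4). Its groups overlapped at replicate 21 (two-sided exact permutation test, p = 0.143). HMGA2 was 0.181% ± 0.0824 of HMGA TPM in differentiated and 0.214% ± 0.0287 in undifferentiated cells (SD, n = 4).

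Over the transcripts of the 10 genes, 17 of 80 reached a mean of 1 TPM. Of these, 3 were called lower, LIN28B-201, AGO2-201 and HMGA1-202, and 0 higher, against 10.6% lower and 18.8% higher over all 53044 tested transcripts (limma). The share of a transcript within its gene was tested for 9 of them and 0 were called (limma, adjusted p under 0.05 and 10 percentage points), where 2.4% were called over all genes. The largest shift was in HMGA1-202, at -6.43 percentage points (limma, adjusted p = 0.117).

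All 19 genes of microRNA processing and silencing were tested, AGO2 and DICER1 among them. Over all tested genes 33.9% were called higher and 17.4% lower. In this list 4 rose and 4 fell, 21.1% each, and the median log2 fold change was -0.02. Without differentiated replicate 22 there were 7 rises and a median of 0.13, and without replicate 18, 23 or 24 there were 2 rises, with 4 falls in each case. Besides AGO2, the falls were in XPO5, which carries precursor microRNAs out of the nucleus, RAN, the GTPase that powers it, and GEMIN4. XPO5 had 40.4 ± 6.11 TPM in differentiated and 60.1 ± 1.65 TPM in undifferentiated cells (log2 fold change -0.57), and RAN had 170 ± 9.66 and 280 ± 18.3 TPM in the same order (-0.71), with n = 4 and SD throughout. MOV10, a helicase of the silencing complex, rose with 40.4 ± 4.05 TPM in differentiated and 17.6 ± 1.89 TPM in undifferentiated cells (SD, n = 4). The nuclear enzyme DROSHA had a log2 fold change of 0.00 and its partner DGCR8 -0.14, neither called. TARBP2 and PRKRA, partners of DICER1, rose by 0.14 and 0.24 on the log2 scale, and TARBP2 was called in 9 of 18 alternatives.

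LIN28A recruits the uridylating enzymes TUT4 and TUT7 to precursor let-7, and DIS3L2 then degrades it. In these cells LIN28A was low, with means of 0.104 TPM in differentiated and 0.125 TPM in undifferentiated cells. TUT7 rose, with 8.78 ± 0.547 TPM in differentiated and 5.88 ± 0.782 TPM in undifferentiated cells (SD, n = 4; log2 fold change 0.51; limma, adjusted p = 0.00194). TUT4 (0.17) and DIS3L2 (-0.06) were not called. In this list of 8 genes 3 rose (37.5%) and 1 fell (12.5%), against 33.9% and 17.4% over all tested genes. ZSWIM8, which directs decay of microRNAs with their Argonaute, rose by 0.82 on the log2 scale and TENT2 by 0.23, while the exonuclease XRN2 fell by 0.17. XRN2 was called in 10 of 18 alternatives and TENT2 in 13, and the list had 0 falls without any one of replicates 17 to 20, 23 and 24. Among 8 tested genes that host or overlap let-7 loci, 4 rose and 0 fell (limma), but 2 fell under each of 2 other scalings, by quantiles and by median-of-ratios, and 1 without differentiated replicate 21. MIR100HG, the host of let-7a-2, had 13.0, 11.1, 12.6 and 13.8 TPM in differentiated replicates 21 to 24, against 2.64, 2.83, 2.87 and 4.18 TPM in undifferentiated replicates 17 to 20. Its groups were far apart, with a log2 fold change of 1.73 ± 0.12 SE. WDR82, MIR99AHG and SPACA6 rose by 0.62, 0.46 and 0.29 on the log2 scale. MIRLET7IHG (0.25), HUWE1 (-0.03), MIRLET7A1HG (-0.13) and MIRLET7BHG (-0.21) were not called. MIRLET7BHG was called lower under both other scalings, HUWE1 under median-of-ratios and MIRLET7A1HG under quantiles. SPACA6 was called in 9 of 17 alternatives, and its log2 fold change was 0.17 under median-of-ratios scaling and 0.06 under quantile normalization, both uncalled. A host transcript is not a measure of mature let-7.

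Of 33 known let-7 targets outside the 10 genes, 30 were tested. Of these, 2 rose (6.7%) and 16 fell (53.3%), against 33.9% and 17.4% of all tested genes. The median log2 fold change was -0.26 against 0.10 for all tested genes. MYC, the growth-promoting transcription factor, had 6.0, 6.16, 5.90 and 5.21 TPM in differentiated replicates 21 to 24, against 51.9, 53.3, 55.5 and 51.1 TPM in undifferentiated replicates 17 to 20. MYCN, the neuroblastoma oncogene, had 0.611 ± 0.0977 TPM in differentiated and 2.01 ± 0.244 TPM in undifferentiated cells (SD, n = 4). The cell cycle phosphatase CDC25A and the transcription factor E2F5 fell by 0.88 and 0.86 on the log2 scale. NRAS and GALNT1 rose by 0.31 and 0.53. Within lane 8 the list had 10 falls and 2 rises, and without differentiated replicate 22 it had 14 falls and 5 rises. Several of these targets drive the cell cycle, and among 15 proliferation genes 14 fell and 0 rose. The mitotic genes AURKA, TOP2A and PLK1 fell by 1.03, 0.94 and 0.89 on the log2 scale, and CCNB1 had 104 ± 3.83 TPM in differentiated and 208 ± 5.52 TPM in undifferentiated cells (SD, n = 4). The list had a summed level of 1354 to 1440 TPM in differentiated and 1998 to 2060 TPM in undifferentiated libraries. The part of proliferation in the falls of LIN28B and of these targets was not tested.
All tested protein-coding genes were also sorted by let-7 seed matches. The 29 genes with 3 or more matches, LIN28B among them, had a median log2 fold change of 0.10, with 20.7% called lower and 20.7% higher. The 10976 genes with none had a median of 0.12, with 19.8% called lower and 40.0% higher. Between them, the 1375 genes with 1 match had a median of 0.07, with 21.6% called lower and 33.7% higher. The 177 genes with 2 matches had a median of 0.04, with 21.5% called lower and 31.1% higher. Median 3′ UTR length was 5188 bases with 3 or more matches, 4673 with 2, 2939 with 1 and 1493 with none, and no test was made.

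**Figure D5:**
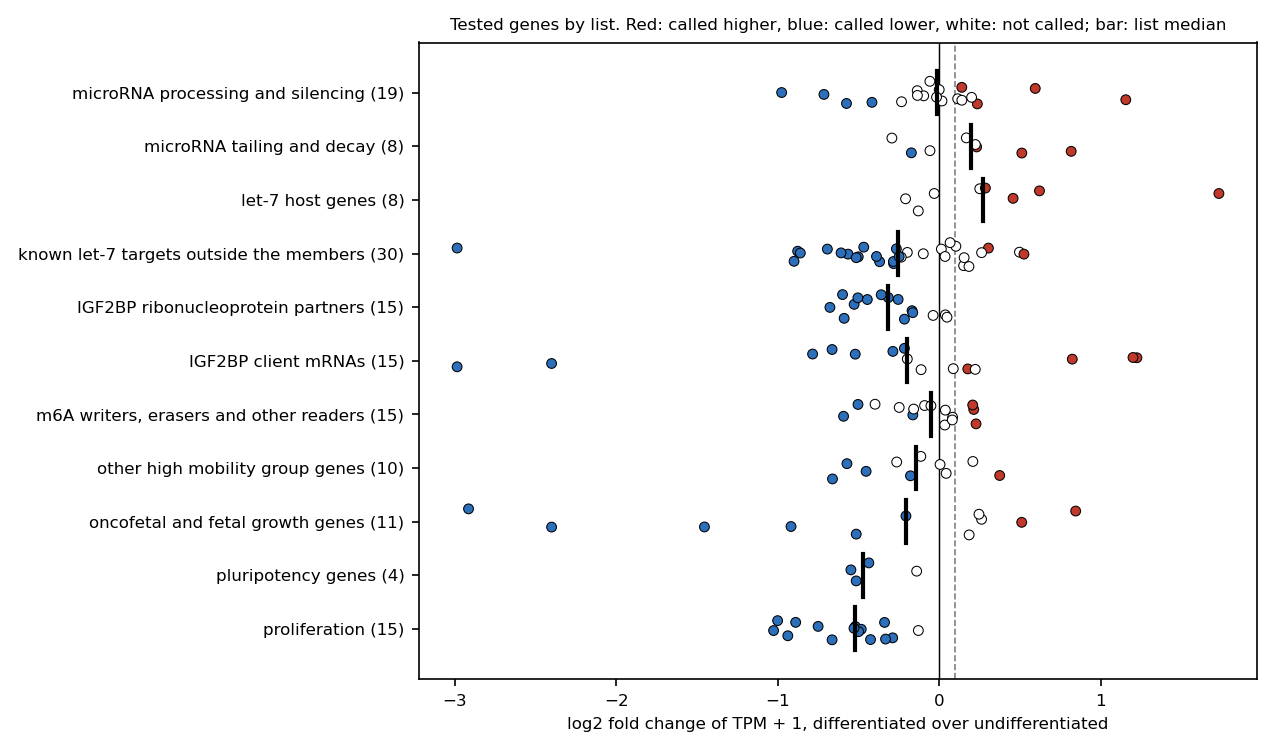
Log2 fold change of TPM + 1, differentiated over undifferentiated, for the tested genes of each list, with the number tested in brackets; red genes were called higher, blue lower and white neither, black bars are list medians and the dashed line is the median of all tested genes at 0.10. IGF2BP partners and proliferation genes show no red point, and let-7 targets show 16 blue and 2 red.

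Messages of the proteins that bind RNA together with IGF2BP were mostly lower. Of 15 partners, all tested, 12 fell (80%) and 0 rose, and the median log2 fold change was -0.31. Over all tested genes 17.4% were called lower and 33.9% higher, with a median of 0.10. G3BP1, a stress granule protein, had 81.3 ± 15.3 TPM in differentiated and 129 ± 5.36 TPM in undifferentiated cells (SD, n = 4; log2 fold change -0.68). SYNCRIP and HNRNPU, of the complex that protects MYC messages, fell by 0.60 and 0.53 on the log2 scale, and the poly(A) binding protein PABPC1 by 0.59. Among 15 tested messages known as IGF2BP clients, 4 rose (26.7%) and 7 fell (46.7%), with a median of -0.20. MYC and IGF2, the fetal growth factor that named the family, fell by 2.99 and 2.40 on the log2 scale, while CD44 and ABCB1 rose by 1.22 and 1.20. IGF2 overlaps a readthrough gene, so its level is uncertain.

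The groups differed in other ways that may bear on the values above. The treatment check was clear, with the retinoic acid targets CYP26A1, CYP26B1, RARB and DHRS3 all higher in differentiated cells, summing to 1368 to 1429 TPM against 5.93 to 8.85 TPM in undifferentiated libraries. Of 9 tested sympathetic neuroblast markers, 7 fell and 1 rose, where 17.4% of all tested genes were called lower and 33.9% higher. The list had summed levels of 1145 to 1356 TPM in differentiated and 1735 to 1830 TPM in undifferentiated libraries. All 8 tested markers of mesenchymal neuroblastoma cells rose, summing to 1143 to 1262 TPM in differentiated and 276 to 301 TPM in undifferentiated libraries, with PRRX1 near 0 in both. Of 3 tested Schwann cell markers, S100B rose, and SOX10 and FOXD3 were listed at 0 in every library. The part of these markers in the results was not tested.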

How the data were processed

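RNA from 8 SH-SY5Y libraries, 4 differentiated and 4 undifferentiated, was extracted with RNeasy columns and prepared with a stranded mRNA kit, per the labels' protocols. The authors deposited TPM for 194993 Ensembl transcripts, with each library summing to 1000000, so depth is unknown. FastQC 0.11.2, Salmon and GRCh37 are named in the submitters' processing notes; the sources used here do not give the Salmon version or the annotation. Transcripts were matched by identifier to GENCODE 29 (GRCh38), 180930 of them (92.8%), holding 93.2% to 95.0% of TPM, and summed per gene. Coordinates are on GRCh38. Salmon splits reads shared with pseudogenes or paralogs (HMGA1, RAN, YBX1, PABPC1, HMGB1), so those levels are uncertain.

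Genes and transcripts with a mean of 1 TPM or more were tested with limma 3.58.1 (R 4.3.3; trend, group only) on log2(TPM+1), two-sided. Fold changes on this scale understate changes of low genes. Genes under 1 TPM and paralog shares had exact permutation tests. Transcript shares were tested in genes of 5 TPM or more, for mean shares of 10% to 90%. Alternatives were a pseudocount of 0.1, no minimum or 5 TPM, other scaling and variance models, lane 8, coding transcripts only, each library left out and a length correction in 20 bins. The steps were tested on simulated data.

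The 10 genes, the lists and the tests were chosen with earlier results of these data known. Named were the 10 genes, up to 4 called genes of each pathway list by size of change, leading transcripts and shifted shares, and the nearest genes in profile of any tested member changed by 1 or more on the log2 scale, which none reached. Other genes named (GEMIN4, XPO5, AGO1, AGO3, DROSHA, DGCR8, TARBP2, PRKRA, TUT4, DIS3L2, MIRLET7IHG, HUWE1, MIRLET7A1HG, MIRLET7BHG, NRAS, GALNT1, PLAGL1, IGF2R, PRRX1, SOX10, FOXD3) were added after their values were seen.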

Additional observations from a re-analysis of the deposited data

Results flagged for a closer look

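HMGA1 in undifferentiated replicate 19, at 113 TPM, stood apart from the other undifferentiated libraries at 103, 103 and 104 TPM. The HMGA2 share of HMGA TPM was 0.257% in undifferentiated replicate 20, apart from 0.197 to 0.206% in the other 3. In both cases the gap to the nearest library took 0.874 and 0.858 of the group's range, past Dixon's critical value for 4 libraries. In all, 32 groups of 4 libraries were examined, and chance flags about 1 group in 20.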

How the results depend on the processing

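LIN28B was lower and called in all 18 alternatives, and AGO2 was lower in all 18 and called in all but lane 8. Members called lower numbered 2 with all libraries, 1 within lane 8, 4 with the length correction and 2 to 3 with each library left out; none was called higher in any of these. With no minimum, which brings in the 5 low genes, 3 were lower and IGF2BP2 higher. DICER1, uncalled throughout, changed sign without differentiated replicate 22, to 0.064 on the log2 scale (-0.214 to 0.064 with each library left out). Over all genes, 2970 were called lower, 5098 with quantile normalization, 1914 within lane 8, 4669 with the length correction and 2533 to 3371 with each library left out. Falls in the microRNA processing list numbered 7 with quantile normalization against 4, and falls among let-7 targets 10 within lane 8 against 16. The let-7 targets had 19 falls under each of median-of-ratios scaling, quantile normalization and the length correction. Member transcripts called lower numbered 3 with all libraries, 5 with no minimum, 1 within lane 8 and 2 to 4 with each library left out, and those called higher 0 to 1. No paralog share passed adjustment over the 6 shares with all transcripts, where 3 had an unadjusted exact permutation p under 0.05, and 4 passed with coding transcripts only. The IGF2BP1 share, -0.042 percentage points, was 0.048 without undifferentiated replicate 18 and 0.045 without differentiated replicate 24 (-0.142 to 0.048 with each library left out). The median log2 fold change of genes without a let-7 match was -0.00091 under median-of-ratios and -0.0015 under the length correction. That of genes with 3 or more was -0.032 under median-of-ratios, 0.041 under the length correction and -0.35 for 4 genes with 3 or more octamer matches. The causes were not tested. For genes under 1 TPM and shares, leaving out a library or using lane 8 leaves too few libraries for an exact p under 0.05, so only values were compared. No paired analysis was possible because the groups share no replicate numbers. Depth is unknown, which limits every value under 1 TPM.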

Other observations

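Other genes of fetal growth and early development moved beside LIN28B. Over all tested genes 33.9% were called higher and 17.4% lower. Of 11 tested oncofetal and fetal growth genes, 2 rose (18.2%), 6 fell (54.5%) and the median log2 fold change was -0.21. There were 4 rises and 6 falls without differentiated replicate 22, and 4 rises and 5 falls with coding transcripts only and with the length correction. DLK1, an imprinted Notch family ligand, had 20.8 ± 2.55 TPM in differentiated and 163 ± 10.0 TPM in undifferentiated cells, and GPC3, an oncofetal glypican, had 4.83 ± 0.642 and 14.9 ± 0.413 TPM in the same order (SD, n = 4). PEG10 fell by 0.92 and IGF2 by 2.40 on the log2 scale, while PLAGL1 and IGF2R rose by 0.85 and 0.51. Of 10 pluripotency genes 4 reached 1 TPM and 3 of them fell, DNMT3B by 0.55, SALL4 by 0.51 and SOX2 by 0.44 on the log2 scale. The SALL4 groups overlapped, and it was called in 11 of 18 alternatives, not without differentiated replicate 22 (limma, adjusted p = 0.0673) and not within lane 8 (limma, adjusted p = 0.209). Of 10 other high mobility group genes, 4 fell, 1 rose and 5 were not called, and HMGB2 had the largest change, at 507 ± 49.3 TPM in differentiated and 799 ± 19.8 TPM in undifferentiated cells (SD, n = 4). HMGB3 and HMGB1 fell by 0.57 and 0.45 on the log2 scale and HMG20B rose by 0.38.

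Among 15 tested m6A writers, erasers and readers other than IGF2BP, 3 rose and 3 fell, 20% each, with a median of -0.05. Over all tested genes 33.9% were called higher and 17.4% lower. HNRNPA2B1 fell by 0.50 and RBM15, a writer subunit, by 0.59 on the log2 scale, while YTHDF3, a reader, and WTAP, a writer subunit, rose by 0.23 and 0.21. YTHDF3 was called in 8 of 18 alternatives and WTAP in 15, and without differentiated replicate 21 the list had 5 falls and 2 rises. Scaling by median-of-ratios gave 6 falls and 0 rises. The summed level of the 10 genes described in the report was 206 to 232 TPM in differentiated and 255 to 260 TPM in undifferentiated libraries.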
